A study of Mus musculus with 4 samples.

Results

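Macrophages are the first immune cells to settle in embryonic organs, where they engulf dying cells, digest them in lysosomes and release complement. They depend on the receptor CSF1R, which binds the growth factors CSF1 and IL34, and they carry surface receptors that signal through small adaptor proteins. In the ureter they are scattered among the mesenchymal and epithelial cells that make up most of the tissue, so that an array of whole ureters averages their transcripts with those of all other cells.

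Expression of 10 macrophage genes (Csf1r, Aif1, Cx3cr1, Cd68, Lyz2, Mrc1, Fcer1g, Tyrobp, C1qa and C1qb) was followed in cultured mouse ureters. The genes were taken by name, and each probe of the array that carries one of these names was used, 15 probes for 10 of the 29924 gene names on the array. Wildtype NMRI ureters were explanted at E12.5, with the kidney and bladder ends removed, and kept for 18 h without serum. They received either 10 µM IWP-2, an inhibitor of the enzyme Porcupine that WNT ligands need for their secretion, or the solvent DMSO (2:1000) as control. Each of 4 two-colour arrays compared a treated pool of ureters with a control pool, with the treated RNA in the red channel of arrays 1 and 3 and in the green channel of arrays 2 and 4. The comparison addresses whether the macrophage genes respond to a block of WNT secretion, and whether they do so together.

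The raw intensity of the gene probes had medians of 368 to 711 for control RNA and 385 to 694 for treated RNA, over a local background of 28 to 77. The number of arrays, 4, limits the precision. Axin2, a direct target of WNT signalling, was lower with IWP-2 by a log2 ratio of -1.56 (limma 95% interval -1.67 to -1.45). Defining genes of the ureter, Tbx18 in the mesenchyme and Epcam in the epithelium, were well above background in all 8 channels, and so were all 15 probes of the macrophage genes.

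Of the 10 genes, 8 were higher with IWP-2 and 0 were lower (limma, adjusted p under 0.05 over 22461 genes), also 0 at an unadjusted p under 0.05. Lyz2 and Cd68 rose most, to 1.35-fold and 1.32-fold, whereas Csf1r and Cx3cr1 were at 0.963-fold and 1.04-fold and did not pass the test. Among all genes tested 18.1% were higher and 15.0% were lower. The median log2 ratio of the 10 genes was 0.24, against 0.00 for all genes. All 8 genes that rose were above 0 on 4 of 4 arrays, a pattern that 22.3% of all genes showed. In RNA of a whole organ, a larger number of cells of a type and more RNA per cell cannot be told apart. Without array 1 the count of higher genes was 5, with the authors' table of fold changes it was 3, and with the 8 channels as unpaired samples it was 1.

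**Figure D1:**
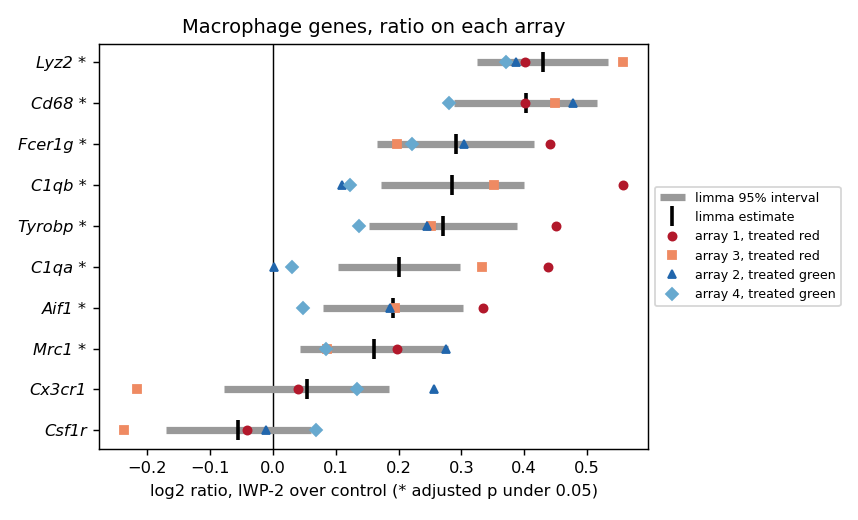
Log2 ratio of IWP-2 over control (x axis) for the 10 macrophage genes (y axis), with 1 symbol per array (red symbols, treated RNA in the red channel; blue symbols, treated RNA in the green channel), the limma estimate (black tick) and its 95% interval (grey bar). Lyz2 and Cd68 lie to the right of 0.25 on every array, whereas the intervals of Cx3cr1 and Csf1r include 0.

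Csf1r encodes the receptor that macrophages need for survival and growth. Its level (log2 intensity after normalisation of the channels) was 12.37, 12.11, 12.33 and 12.37 in control pools 1 to 4 and 12.33, 12.10, 12.09 and 12.44 in treated pools 1 to 4. The groups overlapped over nearly their whole range. The log2 ratio was -0.05 (95% interval -0.17 to 0.06, adjusted p = 0.420), and the highest change that the interval allows lies below the estimates of the 8 genes that rose. The other two probes of Csf1r gave -0.02 and -0.01.

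Cx3cr1 encodes the receptor of the chemokine CX3CL1 and had no common direction on the arrays. Its level was 11.38, 10.57, 11.21 and 11.25 in the control pools and 11.42, 10.83, 11.00 and 11.39 in the treated pools. Pool 2 was the lowest in both groups. The ratio was 0.04, 0.26, -0.22 and 0.13 on arrays 1 to 4, with an estimate of 0.05 (95% interval -0.08 to 0.19, adjusted p = 0.488). A probe that shares 55 bases of its target with this one gave 0.04. The remaining probe, at another position of the gene, gave 0.24, -0.42, -0.17 and -0.11, so that on arrays 2 and 4 the probes of this gene went in opposite directions.

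Cd68 and Lyz2 encode products of the phagocytic machinery, a lysosomal membrane protein and an antibacterial enzyme that macrophages secrete. The level of Cd68 was 11.99, 11.97, 12.03 and 12.17 in the control pools and 12.39, 12.44, 12.48 and 12.45 in the treated pools. Every treated pool was above every control pool, which held for no other of the 10 genes and for 10.9% of all genes tested. The log2 ratio of Cd68 was 0.40 (95% interval 0.29 to 0.52, SD between arrays 0.09, adjusted p = 0.00170). A second probe more than a kilobase away in the genome rose by a like amount, with ratios of 0.39, 0.29, 0.43 and 0.24.

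Lyz2 was at 10.94, 11.44, 10.64 and 11.26 in the control pools and at 11.34, 11.83, 11.20 and 11.63 in the treated pools. Its pools ranged widely, with pools 2 and 4 high in both groups, while the ratios within the arrays were narrow at 0.40, 0.39, 0.56 and 0.37. The estimate was 0.43 (95% interval 0.32 to 0.53, adjusted p = 0.00101). Lyz1, a near-identical neighbouring gene whose transcripts may share the probe, was measured by its own probe at 0.52 (adjusted p = 0.00172), and the genes are therefore uncertain as separate measurements.

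Mrc1, a mannose receptor of tissue macrophages, changed least among the genes that passed the test. Its level was 10.02, 9.57, 9.94 and 10.19 in the control pools and 10.22, 9.85, 10.03 and 10.28 in the treated pools. Each treated pool was above its partner on the same array, but the groups overlapped. The log2 ratio was 0.16 (95% interval 0.04 to 0.28, adjusted p = 0.0457). The call was lost under 11 of 15 other ways of processing, at adjusted p between 0.0505 and 0.498.

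Fcer1g and Tyrobp encode adaptors that lend activating receptors of myeloid cells their signalling tail. Both rose, with log2 ratios of 0.29 (0.17 to 0.42, adjusted p = 0.00776) for Fcer1g and 0.27 (0.15 to 0.39, adjusted p = 0.00809) for Tyrobp. The level of Tyrobp was 11.49, 11.61, 11.66 and 12.06 in the control pools and 11.94, 11.85, 11.91 and 12.19 in the treated pools. Control pool 4 was above treated pools 1 to 3, while on each array the treated pool was the higher. The level of Fcer1g was 11.19, 11.24, 11.24 and 11.57 in the control pools and 11.63, 11.54, 11.44 and 11.79 in the treated pools, again with a high control pool 4. The ratios of the adaptors on arrays 1 to 4 were close to each other, at 0.44, 0.30, 0.20 and 0.22 for Fcer1g and at 0.45, 0.24, 0.25 and 0.14 for Tyrobp. The probe of Tyrobp, whose ends lie at chr7:31200651-31202378 (mm9, plus strand), spans an interrupted stretch of the genome as a spliced transcript does. It is shown because it covers part of the signalling tail. Capitals mark a tyrosine codon, the codons that follow it and a leucine codon, the spacing of the activation motif through which such adaptors signal:
Tyrobp probe: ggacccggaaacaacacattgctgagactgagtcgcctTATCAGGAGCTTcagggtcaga

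Aif1 encodes the calcium-binding protein IBA1, a common histological marker of macrophages. It was at 10.46, 10.42, 10.31 and 10.76 in the control pools and at 10.80, 10.61, 10.50 and 10.81 in the treated pools. Here too control pool 4 was as high as the treated pools. The log2 ratio was 0.19 (95% interval 0.08 to 0.30, adjusted p = 0.0225), and it was largest on array 1 (0.33) and smallest on array 4 (0.05). Without array 1 the estimate was 0.16 with an adjusted p of 0.0960, and without array 2 it was 0.16 with an adjusted p of 0.0902.

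C1qa and C1qb encode chains of the complement recognition protein C1q. Their probes lie at chr4:136452409-136452468 and chr4:136436578-136436637 (mm9, minus strand). The probes are shown because the genes moved alike and are related in sequence. In the stretch of 24 bases in which they are most alike, in capitals, 15 bases are identical, and the longest run that the whole probes share is 5 bases:
C1qa probe: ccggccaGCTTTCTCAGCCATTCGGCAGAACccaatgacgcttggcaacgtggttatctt
C1qb probe: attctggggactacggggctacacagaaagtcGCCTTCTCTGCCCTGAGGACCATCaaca

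Both genes rose with IWP-2, and their ratios were larger on the arrays with the treated RNA in red. The dye term had an adjusted p of 0.153 for C1qa and 0.172 for C1qb (limma). It passed the test for 0 of the 22461 genes, with 0.122 as the lowest adjusted p, so that this test cannot decide on a dye difference of these genes. C1qa was at 10.04, 10.14, 9.78 and 10.60 in the control pools and at 10.47, 10.14, 10.11 and 10.63 in the treated pools. C1qb was at 10.82, 10.99, 10.80 and 11.27 in the control pools and at 11.37, 11.10, 11.15 and 11.39 in the treated pools. With the treated RNA in red (arrays 1 and 3) the ratios were 0.44 and 0.33 for C1qa and 0.56 and 0.35 for C1qb. With the treated RNA in green (arrays 2 and 4) they were 0.00 and 0.03 for C1qa and 0.11 and 0.12 for C1qb. The limma estimates, in which the dye term takes up such a difference, were 0.20 (0.10 to 0.30, adjusted p = 0.0118) and 0.29 (0.17 to 0.40, adjusted p = 0.00583). Without a dye term C1qa did not pass the test (adjusted p = 0.119).

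As to whether the genes moved together, 9, 9, 8 and 10 of the 10 genes were above 0 on arrays 1 to 4. Their median ratio was 0.40, 0.25, 0.22 and 0.13 on the arrays, so that array 4 showed the smallest rise. For all genes tested the median ratio was 0.01, 0.01, -0.00 and 0.00 on arrays 1 to 4. Csf1r was the lowest of the 10 genes on arrays 1 to 3 and C1qa on array 4. The highest of the 10 was C1qb on array 1, Cd68 on array 2 and Lyz2 on arrays 3 and 4. The SD over the 10 genes of their mean ratio was 0.15, and the SD between arrays of a gene had a median of 0.12 and ranged from 0.09 for Cd68 and Lyz2 to 0.22 for C1qa.

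The pools of ureters differed from each other in these genes, by medians as large as that between the treatments. To compare pools within 1 dye, control pool 4 was set against control pool 2, both red, and treated pool 4 against treated pool 2, both green. In pool 4, 9 of the 10 genes were higher among the controls, against 49.8% of all genes, and 9 of 10 among the treated pools, against 45.8%. The medians of the 10 genes were 0.34 and 0.31, against medians of -0.00 and -0.01 for all genes. Of the 10, Cx3cr1 differed most, by 0.68 and 0.56, followed by Mrc1 at 0.62 among the controls and C1qa at 0.49 among the treated pools. Lyz2 was the exception, with -0.18 and -0.20. Of the other macrophage genes tested, 26 and 25 of 30 were higher in pool 4, at medians of 0.21 and 0.20. Erythroid genes went the other way, with 1 and 0 of 7 higher in pool 4 and medians of -0.31 and -0.34. Pools 3 and 1 differed less, by medians of -0.06 (controls, green) and -0.21 (treated, red), with 3 and 1 of the 10 genes higher in pool 3, against 51.3% and 50.7% of all genes. These differences between 2 pools have no replicate and no test. Since both pools of a number lie on 1 array, a property of the array and one of the ureters that were pooled cannot be told apart.

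**Figure D2:**
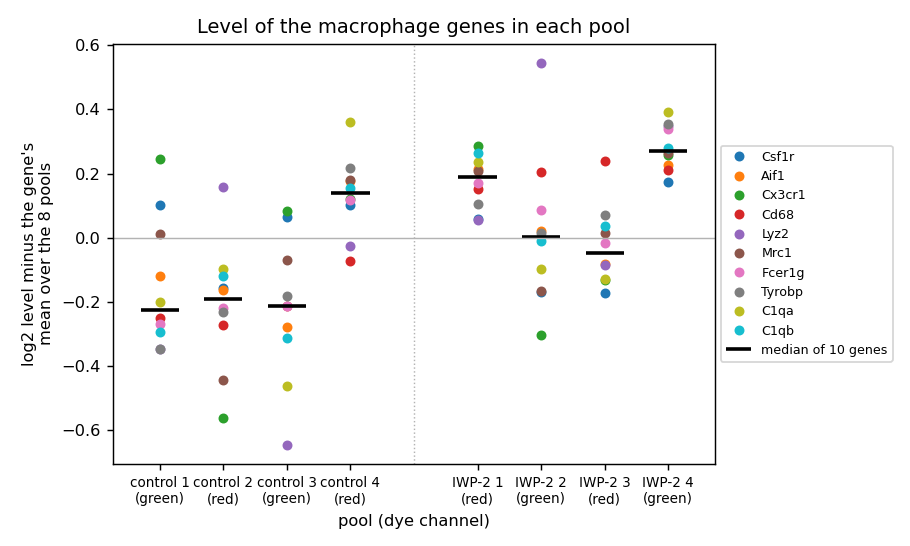
Log2 level of each macrophage gene in the 4 control and the 4 IWP-2 pools (x axis, with the dye channel), less the mean of that gene over the 8 pools (y axis). Each colour is a gene and black lines are medians of the 10 genes. Most genes of control pool 4 lie above 0, unlike those of control pools 1 to 3, and IWP-2 pool 4 is the highest of the treated pools by its median.

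Averaged over the 10 genes and after the mean of each dye was removed, the level was -0.13, -0.23, -0.20 and 0.12 in control pools 1 to 4 and 0.16, 0.03, -0.04 and 0.30 in treated pools 1 to 4. C1qb (Pearson r = 0.980), Aif1 (0.973) and Fcer1g (0.970) followed this mean most closely over the 8 pools, and Csf1r (0.488), Cx3cr1 (0.550) and Lyz2 (0.556) least. The genes enter the mean themselves, and the pools share arrays. Outside the lists examined, the named genes with the most similar profile among 22461 were Stmn2 (0.988), Zfp944 (0.985), Cltb (0.984), Naip2 (0.982) and Ppp2r2c (0.982). C1qa, at 0.929, was at rank 135 of the 22461 genes. The coefficients rest on 8 values and are given as a description.

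A wider list of 34 macrophage genes held genes that rose and genes that fell. Of its 30 genes tested, 12 were higher, 4 were lower and 14 did not pass, with a median of 0.11. Among the 16 of them with a mean processed signal over 100, 10 were higher and 2 were lower, and the median was 0.24. Over all genes tested 18.1% were higher and 15.0% were lower, a share that 4 of 30 does not exceed. Fcgr2b, Cd163, Timd4 and H2-Aa were not well above background on all 4 arrays of either group. The membrane protein Ms4a7 rose most (0.89, adjusted p = 0.000361), with ratios of 1.08, 0.99, 0.81 and 0.68. The inhibitory receptor Lilrb4 followed at 0.73, for which a near-identical gene, Gp49a, gave 0.73 as well, so that these may not be separate. The scavenger receptor Msr1 was even across the arrays at 0.51, 0.52, 0.51 and 0.55 (adjusted p = 0.000302). Adgre1, which encodes the macrophage marker F4/80, rose by 0.49 (95% interval 0.34 to 0.65), and the pan-leukocyte gene Ptprc by 0.36. Further rises were found for the protease Ctss (0.40), the third C1q chain C1qc (0.28), Trem2 (0.26), whose product signals through TYROBP, Stab1 (0.22), Cd53 (0.16) and the Fc receptor Fcgr1 (0.15). Fcgr1 was well above background in 2 control and 4 treated channels. It entered the test through the treated group alone, so that its rise is uncertain. C1qc was at 0.51, 0.26, 0.35 and 0.01 on arrays 1 to 4, with array 4 the lowest as for the median of the 10 genes.

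The 4 genes that fell included receptors of resident macrophages. Lyve1, a hyaluronan receptor that lymphatic endothelium also carries, fell most (-0.51, 95% interval -0.61 to -0.42, adjusted p = 0.000355), and it was below 0 on 4 of 4 arrays. Mertk, which recognises dying cells, was at -0.31, -0.52, -0.50 and -0.48 on the arrays (adjusted p = 0.00101). Fcrls was at -0.27 and the antigen-presenting gene H2-Ab1 at -0.19. H2-Ab1 was well above background in 4 control and 3 treated channels. It entered the test through the control group alone, so that its fall is uncertain. Folr2, Siglec1 and Cd74 were at -0.09, -0.00 and -0.04 and did not pass the test. They were dim, with mean log2 levels of 7.37, 6.65 and 6.85 in the control pools, where the background correction draws ratios towards 0. Pf4, which platelets and their precursors also make, rose by 0.56 (adjusted p = 0.0223), but by 1.31 on array 3 and by -0.08 on array 4. The megakaryocyte gene Ppbp was at 1.13 on array 3 and -0.31 on array 4, and Gp9 at 0.60 and -0.17, while Itga2b was at 0.14 and 0.26 and Gp1bb at 0.08 and -0.09. The part of megakaryocytes in the value of Pf4 was not tested.

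**Figure D3:**
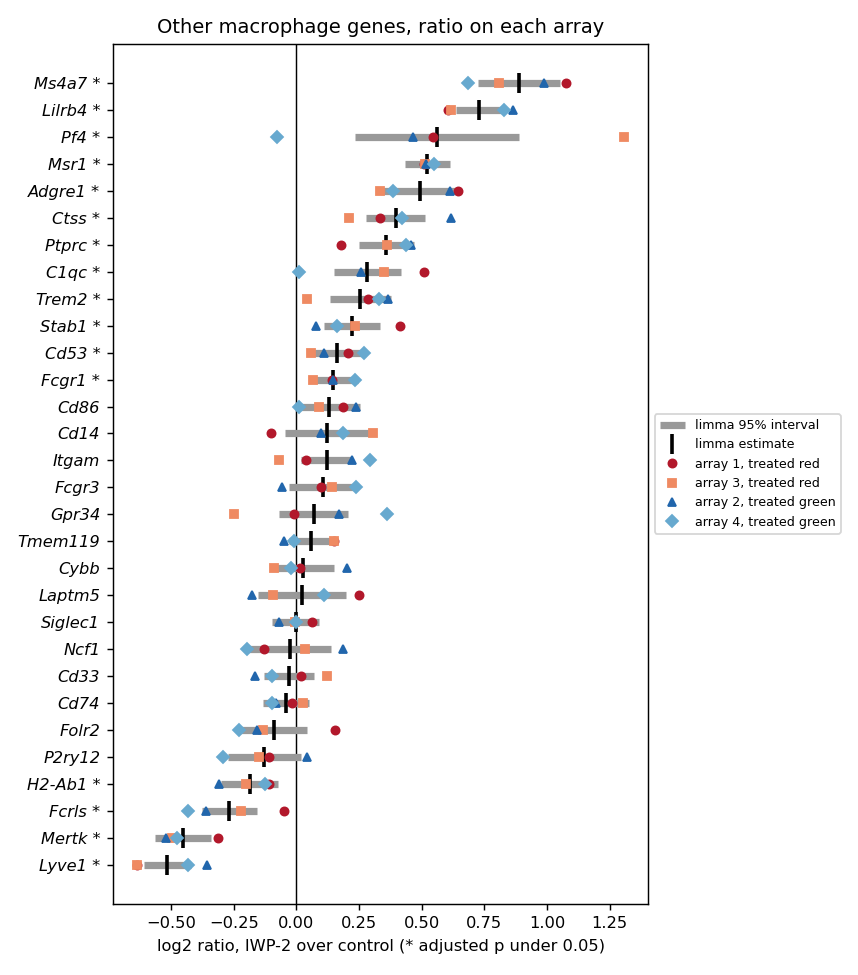
Log2 ratio of IWP-2 over control (x axis) for the 30 further macrophage genes tested (y axis), with 1 symbol per array, the limma estimate (black tick) and its 95% interval (grey bar). Ms4a7, Lilrb4, Msr1 and Adgre1 lie above 0.3 on every array, Lyve1 and Mertk lie below -0.3, and Pf4 is spread from -0.08 to 1.31.

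The transcription factors of the myeloid lineage moved mostly in the same direction, with 4 of 7 higher, 1 lower and a median of 0.16. Cebpb (0.74, adjusted p = 0.000405), Maf (0.45) and Cebpa (0.26) rose. Maf was at 0.35 and 0.11 with the treated RNA in red (arrays 1 and 3). With it in green (arrays 2 and 4) Maf was at 0.68 and 0.66. Spi1, which encodes the lineage factor PU.1, rose by 0.16 (95% interval 0.07 to 0.26, adjusted p = 0.0215). It was dim, with a mean log2 level of 6.97 in the control pools, where the background correction draws ratios towards 0. Its rise is therefore not set against those of brighter genes. Runx1, required for blood cell formation, fell (-0.16). Irf8 and Ikzf1 were at 0.08 and 0.15 and did not pass, and Ikzf1 was dim as well (6.95). Of these factors Cebpb, Maf and Runx1 are also expressed outside the blood lineage.

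Promoters were searched for GAGGAAG, a core sequence bound by PU.1, on both strands, from 250 bases before to 50 bases after the start of transcription (RefSeq, GRCm38.p6). Sequences were at hand for 7 of the 10 genes, and Mrc1 alone held the letters, against 13.6% of the 32851 promoters of the table. The bases before the start of Mrc1 (chr2:14229164-14229413, plus strand) are shown because they hold it 2 times, 168 and 36 bases before the start, in capitals and in the reverse orientation:
Mrc1 promoter: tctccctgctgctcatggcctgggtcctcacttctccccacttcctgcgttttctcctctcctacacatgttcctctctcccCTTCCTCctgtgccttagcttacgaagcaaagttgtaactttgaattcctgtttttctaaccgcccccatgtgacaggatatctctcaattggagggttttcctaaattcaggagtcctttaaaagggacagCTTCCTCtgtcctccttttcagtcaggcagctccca
A match is a description of the letters only, and for the other 6 genes the result says that they are not in this window.

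A list of ligands and chemokines that act on macrophages also held the chemokine receptor gene Ccr2. Of its genes 9 of 12 were tested and 3 were higher. Csf2, Csf3 and Ccr2 were not well above background on all arrays of either group. Csf1, a ligand of CSF1R, rose by 0.37 (95% interval 0.28 to 0.47, adjusted p = 0.00114) with ratios of 0.36, 0.45, 0.31 and 0.38. Il34, the other ligand, was at 0.10 (0.00 to 0.20, adjusted p = 0.112) and did not pass. The chemokine genes Cxcl12 (0.74) and Ccl3 (0.49) rose, while Cx3cl1, the ligand of CX3CR1, was at -0.11 (adjusted p = 0.0715). Ccl2, Ccl4, Ccl7 and Ccl12 were between -0.07 and 0.05 and did not pass. Il34, Ccl7 and Ccl12 were dim, with mean log2 levels of 7.12, 7.12 and 6.86 in the control pools.

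Genes of inflammatory activation were mostly not detected or did not pass the test. Il1b, Il6, Il10 and Retnla were not well above background on all 4 arrays of either group. Tnf (0.26) and Cd40 (0.25) rose, and Arg1 rose by 0.46 (adjusted p = 0.0391) with 1.10 on array 3 and 0.05 on array 4. Nos2, Ptgs2, Chil3 and Cd80 did not pass, at -0.10 to 0.09. Lysosome genes, most of which are active in many cell types, were higher in 8 of 9 cases with a median of 0.24. Gpnmb (0.99, adjusted p = 0.000317), Ctsb (0.36), Lamp2 (0.32), Grn (0.28), Lamp1 (0.24), Ctsl (0.24), Ctsd (0.21) and Lgmn (0.16) rose, and Npc2 was at 0.14. Lamp2 was at 0.08 and 0.10 with the treated RNA in red (arrays 1 and 3). With it in green (arrays 2 and 4) Lamp2 was at 0.60 and 0.49.

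Markers of other cell types were measured beside these values, since Fcer1g and Tyrobp are also expressed by mast cells, neutrophils and NK cells. The mast cell genes Cpa3, Cma1, Mcpt4, Fcer1a and Ms4a2 were not well above background on all arrays of either group, whereas Tpsb2 (0.14) and Kit (0.46), which other cells of the embryo express too, were higher. Of the neutrophil genes 4 of 9 were tested and 0 passed (limma), with 1 at an unadjusted p under 0.05, Mpo at -0.38, while S100a8, S100a9, Ngp, Ltf and Retnlg were not well above background on all 4 arrays of either group. Of the lymphoid and NK genes 4 of 8 were tested and Cd79b was higher (0.22). Cd3d, Klrb1c, Ncr1 and Gzmb did not meet the background rule. Of the 4 megakaryocyte genes 0 passed (limma, 0 at an unadjusted p under 0.05). They were dim, with mean log2 levels of 6.77 to 7.38 in the control pools, where the background correction draws ratios towards 0.

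The summed level of the 10 macrophage genes (log2) was 14.52 to 14.82 in the control pools and 14.72 to 14.99 in the treated pools. Sums of the genes tested were 12.46 to 12.82 and 12.98 to 13.24 for mast cells, 10.74 to 10.98 and 10.71 to 10.94 for neutrophils, 10.92 to 11.07 and 11.00 to 11.21 for lymphoid and NK cells, and 8.83 to 9.22 and 8.97 to 9.40 for megakaryocytes. Each sum adds different probes, so that sums of different lists cannot be compared and do not measure the abundance of the cell types. Among these lists only the mast cell sum, which rests on the 2 genes Kit and Tpsb2, did not overlap between the groups. The sum of the wider macrophage list did not overlap either (16.12 to 16.20 and 16.26 to 16.45). The same held for the myeloid factors, the ligands and chemokines, the lysosome and the epithelium. A sum is weighted towards its brightest probes. These were Maf for the myeloid factors (mean log2 level 14.59 in the control pools) and Cxcl12 for the ligands and chemokines (15.91). In the wider macrophage list the brightest was Itgam (14.85), which did not pass the test. The separation of a sum therefore need not hold for the other genes of its list. Of single genes, 10.9% of all tested had every treated pool above every control pool.

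Genes of the epithelium, the blood and the endothelium rose as well, and their medians were near that of the macrophage genes. The median was 0.30 for the epithelium, where 7 of 7 genes were higher (Epcam 0.34, Cdh1 0.34, Krt18 0.34, Krt8 0.30, Krt19 0.27, Cldn4 0.27 and Cldn7 0.24). It was 0.27 for erythroid cells, where 5 of 7 genes were higher (Hba-a1 0.30, Hba-x 0.28, Hbb-y 0.28, Hbb-b1 0.27 and Hbb-bh1 0.19), although globin genes are alike in sequence and may share probes. The erythroid median was 0.36 and 0.43 on arrays 1 and 3 (treated red) but 0.07 and 0.10 on arrays 2 and 4 (treated green). Hbb-y was below 0 on arrays 2 and 4 (-0.10 and -0.14), and Hba-a1 on array 2 (-0.03). The median was 0.19 for the endothelium, with 4 of 6 higher (Cldn5 0.37, Cdh5 0.26, Pecam1 0.22 and Kdr 0.15). For the mesenchyme it was 0.02, with Pdgfrb higher (0.80), Tbx18 lower (-0.74) and 4 of 6 genes that did not pass. Summed levels in the control and treated pools were 17.46 to 17.57 and 17.65 to 17.96 for the epithelium, 18.23 to 18.83 and 18.73 to 18.90 for erythroid cells, 15.53 to 15.77 and 15.74 to 15.97 for the endothelium, and 18.46 to 18.58 and 18.52 to 18.67 for the mesenchyme. The part of the tissue makeup in the rise of the macrophage genes was not tested.

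**Figure D4:**
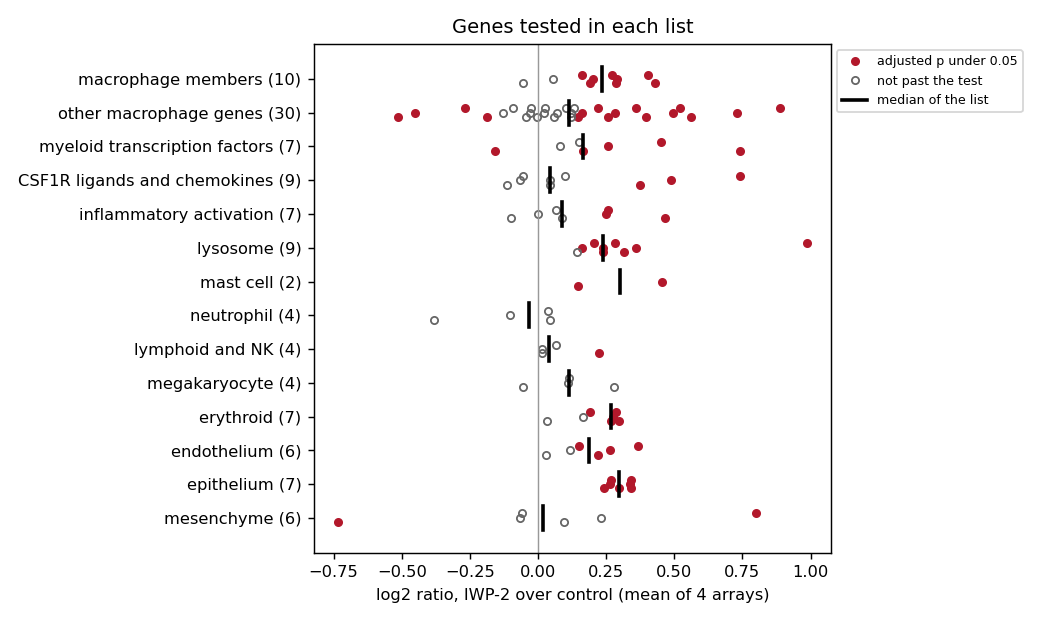
Log2 ratio of IWP-2 over control (x axis, mean of 4 arrays) of the genes tested in each list (y axis, number tested in brackets). Filled red points passed the limma test, open points did not, and black lines are medians. The median of the 10 macrophage genes, 0.24, lies among those of the lysosome (0.24), erythroid (0.27) and epithelial (0.30) genes.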

How the data were processed

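Ureter RNA of 4 treated and 4 control pools was measured on 4 two-colour Agilent arrays, all on 1 slide with 1 scan. The authors ran Agilent Feature Extraction 10.7.3.1 on the scans, and the deposited files hold a mean and a local background intensity per spot and channel, a processed intensity, and a log10 ratio that was used here for the direction only. The authors also deposited a table of signed fold changes, a score rounded to 1 decimal with unstated centring, which served as an alternative. It followed the treated over control ratios with r of 0.988 to 0.992, and its median over all genes was 0 on the log2 scale.

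Intensities were corrected by normexp (offset 50), which draws ratios of dim probes towards 0, and normalised by loess (span 0.3) in limma 3.58.1 (R 4.3.3). Outlier spots were dropped, 4 spots per probe averaged, and probes kept that were well above background in all control or all treated channels. The brightest probe stood for a gene. Ratios were fitted with limma on treatment and dye, with Benjamini-Hochberg adjustment over 22461 genes and 0.05 as threshold. The fit was checked on simulated data with changes larger than those of the 10 macrophage genes, so that the check does not cover changes of their size. Levels per pool were taken after Aquantile normalisation of the channels, and differences between probes were not read as differences in expression. The replicate number names an array, which pairs its pools. The methods state pools of ureters but not whether the replicates are independent dissections. The p-values therefore measure only the spread between these arrays that remains after the dye term, as moderated by limma over all genes.

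The 10 genes and the other lists were chosen with earlier results of these data known. A few genes are not reported here and were left out of the lists. Apart from these, the text names all 10 genes, genes of the other lists past the test (up to 12 per list) and those at background, the 5 named genes most like the mean profile, and Axin2. Lyz1, Gp49a and genes given as not passing were added after their values were seen. Probe positions are those of the files (mm9), and gene names are those of the array design. Alternatives were other background corrections, normalisations, filters, probe rules and dye terms, and leaving out each array.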

Additional observations from a re-analysis of the deposited data

Results flagged for a closer look

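On 1 of the 4 arrays each, 3 of 126 items stood apart from the other arrays by Dixon's test, where chance gives about 1 in 20, or 6.3. Lyz2 was at 0.5576 on array 3 and between 0.3709 and 0.4016 on the others. Cebpb was at 0.9646 on array 4 against 0.649 to 0.6952. The neutrophil gene Camp was at -0.7184 on array 3 against 0.0514 to 0.1714. These are log2 ratios of IWP-2 over control.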

How the results depend on the processing

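The median log2 ratio of the 10 macrophage genes stayed between 0.225 and 0.261 under 11 alternatives and between 0.198 and 0.274 when an array was left out, and 0 of the genes were lower in any of them. The number of higher genes, 8, fell to 3 with the series table of fold changes and to 1, Cd68, with the 8 channels as unpaired samples, which gives up the pairing on the array. Without 1 array it was 5 to 8, with 5 without array 1. Under the same settings 6 and 5 of the wider macrophage list were higher instead of 12 (9 to 12 without 1 array), and 1 was lower with separate channels instead of 4 (3 to 4 without 1 array). Restricted to a mean processed signal over 100, which left 16 genes of that list, its median was 0.239 and 2 were lower. Its median was 0.0912 to 0.128 without 1 array. Calls were lost under 11 of the 15 settings for Mrc1, under 3 each for Aif1 and C1qa, under 2 each for Fcer1g, Tyrobp and C1qb, and under 1 each for Cd68 (series table, adjusted p = 0.0549) and Lyz2 (separate channels, adjusted p = 0.167). Cx3cr1 went from -0.00982 to 0.118 and so had no stable sign. The median of all genes stayed within 0.011 of 0. The slide as a block was not run because all arrays lie on 1 slide. The array itself is the pair, and no further pairing was fitted. Small changes of dim genes are limited by the offset and by the signal over background.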
